A study of Mus musculus with 11 samples.

Results

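The transcripts of 10 core and naive pluripotency transcription factors were followed in mouse embryonic stem cells (ESCs). They were chosen by symbol among the 23284 genes listed for each of 11 RNA sequencing libraries: the core factors Pou5f1, Sox2 and Nanog, and the naive factors Zfp42, Klf2, Klf4, Klf5, Esrrb, Tbx3 and Tfcp2l1. The libraries form 5 groups. Ribodepleted total RNA was sequenced from WT ESCs at 0 h, WT ESCs after 4 h in 10 µg/ml α-amanitin, Tet1, Tet2 and Tet3 triple knockout (TKO) ESCs at 0 h, and TKO ESCs after 4 h in the same dose, with 2 libraries per group. The fifth group holds 3 libraries of polyadenylated (polyA) RNA from WT ESCs. All cells were grown on gelatin, in serum with leukemia inhibitory factor (LIF). The Tet proteins are dioxygenases that oxidise 5-methylcytosine in nucleic acids, and α-amanitin is an inhibitor of RNA polymerase II. How far transcription was blocked in these cells was not measured. The TKO cells were an existing line, so genotype and line cannot be told apart. The study's methods describe the α-amanitin experiment as done in biological duplicate, while the labels do not say whether replicates came from separate cultures. For the polyA libraries the p-values then measure only the spread between libraries, which may be technical. In these bulk libraries, fewer cells of a type and less RNA per cell cannot be told apart.

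ESCs are held in an undifferentiated state by a network of transcription factors that bind one another's genes. Pou5f1 (Oct4) and Sox2 bind DNA together at a joint octamer and Sox element, and Nanog joins them at many enhancers. The naive factors act with this core under LIF: Klf4, Tfcp2l1 and Gbx2 lie downstream of Stat3, Esrrb and Tfcp2l1 also respond to Wnt signalling, and Zfp42 (Rex1) is a zinc finger factor used as a marker of the naive state.

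Positions are given on NCBIM37, the same assembly as mm9, to which the reads were mapped. Each of the core factors is a compact gene on the plus strand: Pou5f1 at chr17:35642982-35647721, Sox2 at chr3:34548927-34551383 and Nanog at chr6:122657507-122664651. Sox2 lies within an intron of the longer non-coding gene Sox2ot on the same strand, so reads of unspliced Sox2ot in total RNA cannot be told apart from Sox2 reads in these values. Zfp42 lies at chr8:44380422-44392363 on the minus strand and Klf2 on the same chromosome at chr8:74842932-74845555. Klf4 lies at chr4:55540013-55545347 on the minus strand, Klf5 at chr14:99697910-99712624, Esrrb at chr12:87702067-87862578, Tbx3 at chr5:120120678-120134733 and Tfcp2l1 at chr1:120524522-120581744, these last 4 on the plus strand. All 10 are protein-coding. A U1 small nuclear RNA is annotated within Tfcp2l1 on the same strand, and the transcript Gm2301 overlaps Tbx3 exons on the other strand. Neither name is among the listed genes. The part of their reads in the Tfcp2l1 and Tbx3 values, and so in the polyA comparison below, was not tested.

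Promoter windows of 250 bases before the start site were read from the RefSeq promoter table (GRCm38.p6) for 8 of the factors. Klf5 and Tbx3 had no entry. The octamer core TTTGCAT, the part of the element that Oct4 contacts, was found on either strand in windows of Nanog, Sox2 and Zfp42, against 4.12% of all 32851 windows. These 3 stretches are shown because they carry the letters through which the core factors are known to act, with the octamer core in capitals (ATGCAAA where it reads on the other strand).
Nanog promoter (chr6:122707397-122707437, plus strand): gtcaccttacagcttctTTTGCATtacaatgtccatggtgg
Sox2 promoter (chr3:34649879-34649919, plus strand): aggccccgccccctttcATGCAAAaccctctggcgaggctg
Zfp42 promoter (chr8:43307171-43307211, minus strand): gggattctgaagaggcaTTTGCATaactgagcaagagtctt
In the Nanog stretch the octamer core is followed after 1 base by the Sox motif CATTGT on the other strand. That spacing occurred in 2 of the 32851 windows, both of them windows of Nanog. The Sox motif alone was in 10.7% of all windows, on either strand. The half-site AAGGTCA, bound by Esrrb, was found in none of the windows of the 8 factors and in 4.08% of all windows. CACCC, the box that Klf factors bind, was in at least 1 window of Pou5f1, Nanog, Zfp42, Klf2 and Esrrb, and in 52% of all windows. A match describes the letters only and is no evidence of binding.

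The windows also differed in CpG dinucleotides, the main DNA substrate of methylation. The median over all windows was 6 CpG per 250 bases. The Klf4 window held 32, the Klf2 window 29 and the Sox2 window 27, whereas the Nanog windows held 2 and 3, the Esrrb windows 3 and 6, the Pou5f1 windows 6 and 8, the Zfp42 window 9 and the Tfcp2l1 window 16. The windows of Zfp42 and Klf4 and the upstream one of Esrrb are shown with each CpG in capitals, because these 3 factors had the largest genotype differences among the 10.
Zfp42 (chr8:43307010-43307259, minus strand): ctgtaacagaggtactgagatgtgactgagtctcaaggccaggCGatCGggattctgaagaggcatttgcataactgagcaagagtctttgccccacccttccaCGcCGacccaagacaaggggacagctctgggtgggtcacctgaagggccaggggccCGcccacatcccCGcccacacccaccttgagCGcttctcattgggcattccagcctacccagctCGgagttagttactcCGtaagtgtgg
Klf4 (chr4:55532476-55532725, minus strand): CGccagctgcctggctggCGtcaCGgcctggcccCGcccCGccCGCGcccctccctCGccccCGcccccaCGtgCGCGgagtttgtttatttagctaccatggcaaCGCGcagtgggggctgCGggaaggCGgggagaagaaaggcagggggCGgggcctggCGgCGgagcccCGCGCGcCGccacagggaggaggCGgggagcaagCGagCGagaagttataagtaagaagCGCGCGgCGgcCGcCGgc
Esrrb (chr12:86360867-86361116, plus strand): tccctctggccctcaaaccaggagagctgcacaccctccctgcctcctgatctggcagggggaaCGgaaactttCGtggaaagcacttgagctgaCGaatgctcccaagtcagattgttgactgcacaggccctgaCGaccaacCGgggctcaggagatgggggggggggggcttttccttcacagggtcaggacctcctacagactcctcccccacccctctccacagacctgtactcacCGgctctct
The Klf4 window is dense in CpG and the windows of Zfp42 and Esrrb are not. The relation of CpG density to the genotype differences was not tested.

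Expression was deposited as TPM, a length-corrected share of the transcripts of each library. The TPM values lie on steps of whole reads, from which totals of 25507874 to 29781366 reads in the ribodepleted and 72639837 to 82129168 in the polyA libraries were recovered. For each gene the recovered number may be the true one divided by a constant, which is the same in every library. Every factor was well covered: the lowest recovered value among the ribodepleted libraries was 430 reads, for Tbx3 in TKO replicate 2 at 4 h. The genotype labels were checked first. Tet1 was at 143 and 124 scaled TPM in WT and at 29.9 and 30.2 in TKO cells at 0 h, and Tet2 fell from a mean of 51.8 to 7.45, while Tet3 was at a mean of 1.45 in both. Values per gene do not show whether the deleted exons are missing. The label of the cell type was checked with 10 other ESC markers, all of them present in every group and summing to between 3504 and 3959 TPM in the ribodepleted libraries. Of markers of other cells, the summed level was 2.22 to 4.91 TPM for 6 primitive endoderm genes, 8.62 to 14.1 for 6 fibroblast genes, 30.7 to 41.4 for 4 neural progenitor genes, 38.1 to 58 for 5 trophectoderm genes (mostly Tfap2c) and 282 to 340 for 7 primed epiblast genes (mostly Dnmt3b), across the ribodepleted libraries. These sums hide single markers that moved with the genotype.

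Among the ESC markers at 0 h, the summed level was 3504 to 3517 TPM in WT and 3861 to 3936 in TKO libraries, most of the gap from Dppa5a (means of 1603 and 1991). By adjusted p alone, Lin28a (-0.51), Dppa4 (-0.35), Utf1 (-0.26) and Gdf3 (-0.25) were lower in TKO cells on the log2(scaled TPM + 1) scale, and Dppa5a (0.22) and Tdgf1 (0.13) were higher. The primed epiblast marker Zic2 was called higher in TKO cells, with mean TPM of 8.22 in WT and 17 in TKO libraries (difference 0.88). Fgf5 and Sox3 were also called higher, at 0.393 and 0.51 TPM in WT and 2.15 and 1.93 in TKO libraries (1.11 and 0.89). Genes were tested at a mean above 1 scaled TPM over the 8 ribodepleted libraries. Fgf5 and Sox3 met this only through their TKO libraries, so a fall could not have been called for them. Zic2, Fgf5 and Sox3 were called higher at 4 h as well. On adjusted p alone, Pou3f1 was higher at 0 h (0.52) and 4 h (0.53). Dnmt3b (-0.31 and -0.49) and Otx2 (-0.41 and -0.26) were lower at 0 h and 4 h by the same rule. Of the neural progenitor genes, Nes was called higher, at 17.6 and 32.7 TPM (0.77), and Olig2 lower, at 18.3 and 0.0429 TPM (-4.19). Olig2 was at 0.0132 TPM in the WT polyA libraries. The fibroblast sum was 8.62 to 8.72 TPM in WT and 12.5 to 13 in TKO libraries at 0 h. Col1a2 was called higher (1.18) and Lum was listed at 0 in WT cells. Postn went the other way, at 1.01 TPM in WT and 0.292 in TKO libraries, and Col1a1 (0.25), Col3a1 (0.0025) and Thy1 (-0.045) did not pass. Gata4 of primitive endoderm was called lower (-0.61). Olig2 and Gata4 passed the filter through their WT libraries. The part of other cells in the differences described here was not tested.

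In WT ESCs at 0 h the 10 factors were spread over a wide range of levels. Pou5f1 was highest at 1167 ± 13.6 TPM (SD, n = 2). Zfp42 came next at 495 ± 24.4, then Sox2 at 291 ± 7.78, Esrrb at 182 ± 5.81, Tfcp2l1 at 134 ± 7.58 and Klf2 at 122 ± 0.451. Klf5 followed at 81.4 ± 0.855, Klf4 at 49 ± 0.156 and Nanog at 38.5 ± 2.3, and Tbx3 was lowest at 14.2 ± 0.575. No neighbours in this order had overlapping libraries. In TKO ESCs at 0 h the order was altered mainly by Zfp42, which stood between Tfcp2l1 and Esrrb at 124 ± 1.96 TPM, and by Klf4, which at 26.1 ± 2.31 stood below Nanog at 46.2 ± 3.05. At 4 h the libraries of Sox2 and Esrrb, and of Klf4 and Nanog, overlapped in WT cells, and those of Esrrb and Zfp42, and of Klf5 and Nanog, overlapped in TKO cells.

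**Figure D1:**
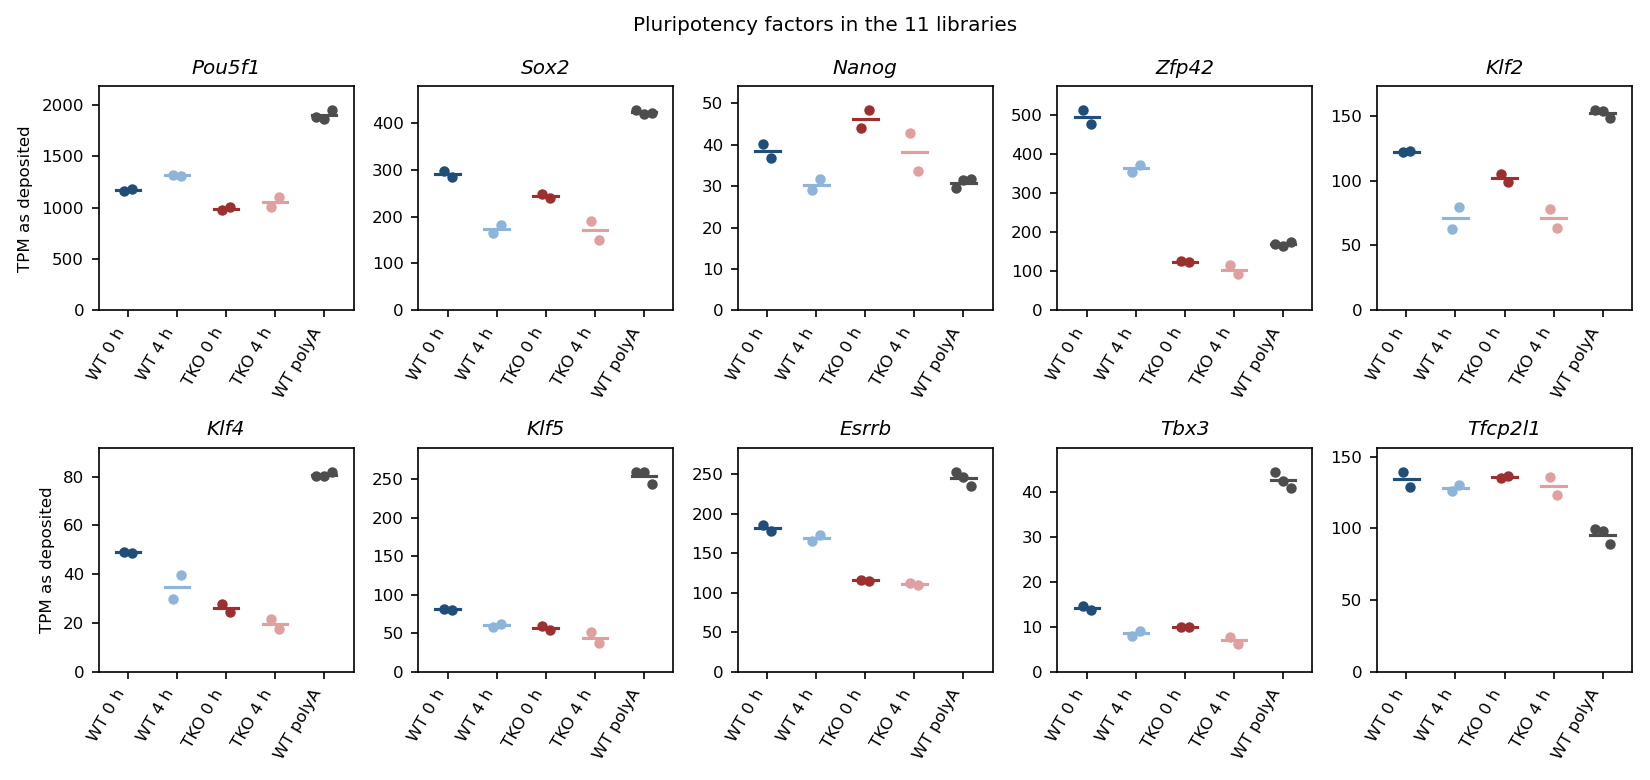
Deposited TPM (y axis, linear from 0) of each factor in the 11 libraries, by group; points are libraries and the short line is the group mean. Zfp42, Klf4, Klf5, Esrrb, Pou5f1 and Tbx3 sit lower in each TKO group than in the ribodepleted WT group of the same time. Pou5f1, Sox2, Klf2, Klf4, Klf5, Esrrb and Tbx3 are highest in the polyA libraries.

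The genotype comparison asks how the factors differ in cells without the Tet enzymes. The differences below are on the log2(scaled TPM + 1) scale, where scaled TPM are TPM divided by a size factor per library, and were fitted with limma over the 8 ribodepleted libraries and 12467 tested genes. A gene was called at a Benjamini-Hochberg adjusted p under 0.05 and a change over 1.5-fold. All 10 factors passed the filter on low values, with every library above it. At 0 h, Zfp42, Klf4, Esrrb and Klf5 were called lower in TKO than in WT ESCs, 4 of 10 factors, where 5.45% of all tested genes were called lower. None was called higher, against 10.4% of all genes. By adjusted p alone, 8 of the 10 were lower, against 28.3% of all genes. No factor had overlapping WT and TKO libraries at 0 h, but that held for many genes: 42.7% of all tested genes were lower and 39% higher without overlap. The median difference of the 10 factors was -0.46, and that of all tested genes was -0.02.

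Zfp42 had the largest difference. Its scaled TPM at 0 h were 497 and 482 in the WT libraries and 117 and 113 in the TKO libraries. The genotypes were far apart and the libraries of each lay close together. The TKO minus WT difference was -2.08 ± 0.07 (SE), which corresponds to 4.23-fold (limma, adjusted p = 1.75e-07), and it stood at the 0.144 percentile of all tested genes.

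Klf4 is a zinc finger factor that can substitute for other Klf factors in keeping ESCs undifferentiated. It was at 47.6 and 49.3 scaled TPM in WT and at 25.8 and 22.6 in TKO libraries, and the groups lay well apart. The difference was -0.98 ± 0.12 (limma, adjusted p = 0.000154). Klf5, which shares targets with Klf2 and Klf4, was at 79.5 and 81.5 scaled TPM in WT and at 54.7 and 50.4 in TKO libraries, without overlap. Its difference of -0.61 ± 0.10 (limma, adjusted p = 0.00109) was just past the 1.5-fold limit, and its call ended on deposited TPM without scaling (-0.51), after quantile normalisation or with a pseudocount of 5 TPM (-0.57 each), and without TKO replicate 2 of 0 h (-0.55). Klf2 was at 118 and 124 scaled TPM in WT and at 97.4 and 91.3 in TKO libraries. This smaller difference of -0.35 ± 0.10 passed on adjusted p (0.0137) but not on fold. The adjusted p was 0.0871 on deposited TPM, 0.0672 without WT replicate 2 and 0.0748 without TKO replicate 2 of 0 h.

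Esrrb, an orphan nuclear receptor that binds the same enhancers as Oct4 and Nanog, was at 180 and 179 scaled TPM in WT and at 108 and 106 in TKO libraries. Replicates differed by far less than the genotypes did, and the difference was -0.74 ± 0.04 (limma, adjusted p = 2.59e-06). Tbx3, a T-box factor downstream of LIF signalling, was at 14.2 and 13.9 scaled TPM in WT and at 9.29 and 9.08 in TKO libraries. Its difference of -0.57 ± 0.08 (limma, adjusted p = 0.000432) fell short of the fold limit at 1.48-fold, and passed it after quantile normalisation (-0.63), with a pseudocount of 0.1 TPM and with limma voom on recovered reads (-0.61 each). Tfcp2l1, a Grainyhead-like factor of the naive network, was at 135 and 130 scaled TPM in WT and at 126 in both TKO libraries. The difference of -0.08 did not pass (95% interval -0.17 to 0.02, limma, adjusted p = 0.153).

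The core factors differed less. Pou5f1 was at 1122 and 1186 scaled TPM in WT and at 905 and 921 in TKO libraries, without overlap, a difference of -0.34 ± 0.08 (limma, adjusted p = 0.00513). Sox2 was at 287 in both WT libraries and at 230 and 221 in TKO libraries, a difference of -0.35 ± 0.08 (limma, adjusted p = 0.00489). Both passed on adjusted p and neither reached 1.5-fold. For Sox2 the adjusted p was 0.0527 on deposited TPM and 0.0563 after quantile normalisation. Nanog was the single factor with a higher mean in TKO cells, at 38.9 and 37.2 scaled TPM in WT and 40.9 and 44.5 in TKO libraries. Its difference of 0.16 did not pass (95% interval -0.03 to 0.35, limma, adjusted p = 0.129).

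The same comparison after 4 h of α-amanitin set other libraries against each other. Its spread was estimated over all 8 ribodepleted libraries together with that of 0 h, so the comparisons are not independent. Zfp42, Klf4, Esrrb and Klf5 were again the factors called lower in TKO ESCs, 4 of 10 against 5.83% of all tested genes, and none was called higher, against 11% of all genes. By adjusted p alone 7 of 10 were lower, against 30.4% of all genes. The differences were -1.96 ± 0.07 for Zfp42, -0.96 ± 0.12 for Klf4, -0.77 ± 0.04 for Esrrb and -0.62 ± 0.10 for Klf5. Pou5f1 (-0.48 ± 0.08), Tbx3 (-0.40 ± 0.08) and Tfcp2l1 (-0.15 ± 0.04) passed on adjusted p alone. On deposited TPM, Tbx3 (-0.26, adjusted p = 0.0589) and Tfcp2l1 (0.01, adjusted p = 0.869) no longer passed, and the Tfcp2l1 difference also failed after quantile normalisation (adjusted p = 0.975), in a fit of the 2 groups alone (0.0833) and without WT replicate 1 (0.0652) or 2 (0.0593) of 4 h. Sox2 (-0.18, adjusted p = 0.0688, and 0.01 after quantile normalisation), Klf2 (-0.16, adjusted p = 0.181) and Nanog (0.16, adjusted p = 0.13) did not pass in limma. The libraries of the genotypes overlapped at 4 h for Nanog and Klf2. The other 8 factors were lower without overlap, as were 40% of all tested genes. Klf5 lost its call without TKO replicate 2 of 4 h, where its difference was -0.43, and also on deposited TPM (-0.46), after quantile normalisation (-0.54) and with a pseudocount of 5 TPM (-0.58). Over all tested genes, 727 were called lower and 1372 higher at 4 h, against 444 and 1940 on deposited TPM and 873 and 1048 after quantile normalisation. At 0 h the 680 lower and 1302 higher calls became 513 and 1607 on deposited TPM.

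**Figure D2:**
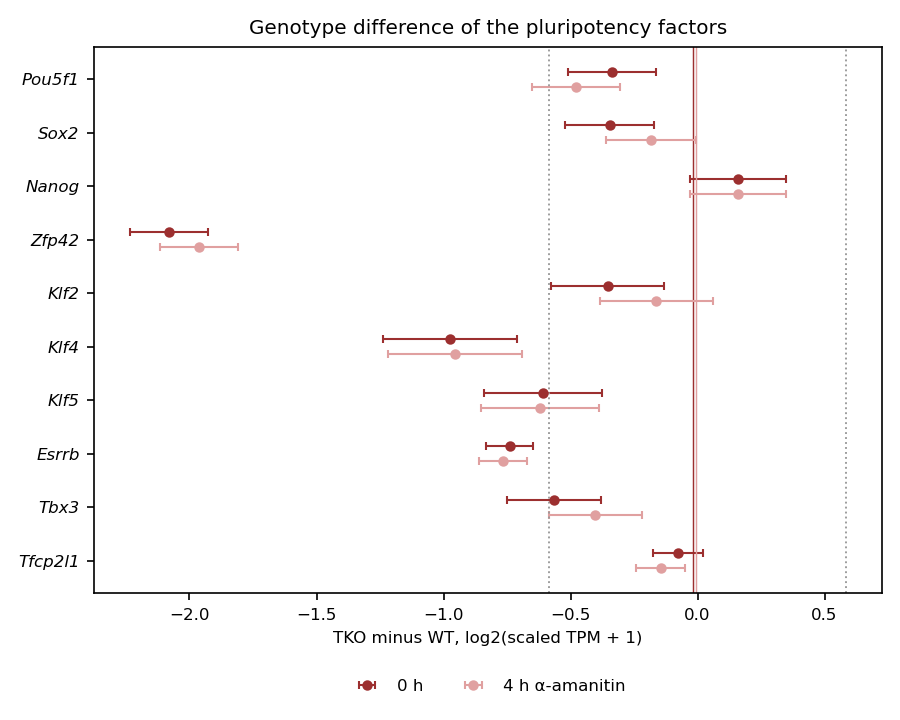
TKO minus WT difference of each factor on the log2(scaled TPM + 1) scale (x axis) at 0 h (dark) and after 4 h of α-amanitin (light), with 95% intervals from limma; solid vertical lines are the medians of all tested genes and dotted lines mark 1.5-fold. Zfp42 lies at -2.08 and -1.96, while both Nanog intervals include 0.

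The α-amanitin comparison asks how much of each transcript was left after 4 h with the inhibitor. TPM are relative, so a value compares a transcript with the rest of the pool and is not a half-life. In WT ESCs, Sox2 and Klf2 were called lower at 4 h, 2 of 10 factors against 2.01% of all tested genes. None was called higher, against 0.0882% of all genes. By adjusted p alone, Tbx3 and Zfp42 were lower as well, so that 4 of 10 fell, against 15.8% of all genes, and Pou5f1 was higher, 1 of 10 against 21.9% of all genes. The median change of the factors was -0.28 and that of all tested genes was 0.03. The 251 tested genes called lower became 585 on deposited TPM and 137 without WT replicate 1 of 4 h.

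Sox2 went from 287 scaled TPM in both WT libraries at 0 h to 185 and 197 at 4 h, that is, 64.4% and 68.5% of the 0 h mean. The change was -0.59 ± 0.08 (limma, adjusted p = 0.00412). Klf2, which supports the naive state, went from 118 and 124 to 70.8 and 86.2 scaled TPM in WT libraries, or to 58.6% and 71.3% of the 0 h mean. Its change was -0.62 ± 0.10 (limma, adjusted p = 0.00591). Both calls rested on WT replicate 1 of 4 h, which was the lower one for both genes: without it the changes were -0.54 for Sox2 and -0.47 for Klf2, still past the adjusted p (0.0462 and 0.0497) but under 1.5-fold. With a pseudocount of 5 TPM the Sox2 change of -0.58 was also under it. Tbx3 kept 64.3% and 70.2% of its 0 h mean in WT cells, a change of -0.53 ± 0.08 (limma, adjusted p = 0.00578), and was called at -0.67 on deposited TPM. Its adjusted p was 0.0516 without WT replicate 1 of 4 h. Zfp42 kept 81.1% and 82.8%, a change of -0.29 ± 0.07 (limma, adjusted p = 0.014). It no longer passed without WT replicate 1 of 0 h (0.0751) or without replicate 1 (0.0886) or 2 (0.0523) of 4 h.

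Pou5f1 moved the other way. It stood at 1482 and 1424 scaled TPM in WT libraries at 4 h, against 1122 and 1186 at 0 h, which is 128% and 123% of the 0 h mean and a change of 0.33 ± 0.08 (limma, adjusted p = 0.0128). The adjusted p was 0.0788 without WT replicate 1 of 0 h and 0.0751 without WT replicate 1 of 4 h. The value is a share of the transcripts present, not an amount. Klf4 kept 69.6% and 89.5% of its 0 h mean (-0.33, adjusted p = 0.0509), Klf5 81.7% and 84.1% (-0.27, adjusted p = 0.068) and Nanog 85.9% and 90.4% (-0.18, adjusted p = 0.121), none of which passed in limma. Esrrb and Tfcp2l1 were the most level factors, at 104% and 105%, and at 107% in both libraries, and neither passed (adjusted p = 0.263 and 0.113 in limma). Their sign turned with the scaling: on deposited TPM the WT changes were -0.10 for Esrrb and -0.07 for Tfcp2l1, where the median of all genes moved from 0.03 to -0.11.

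In TKO ESCs the same factors had the lowest values at 4 h, but none of the 10 was called. The share of all tested genes called lower was 0.16% with the fold limit and 0.265% by adjusted p alone, and the share called higher was 0% by either rule. The 20 genes called lower became 130 without TKO replicate 1 of 4 h, 1 without TKO replicate 2 of 4 h or replicate 1 of 0 h, 0 without TKO replicate 2 of 0 h, and 3 to 7 without any one WT library. They became 51 on deposited TPM and 0 without a variance trend. Sox2 was at 81.4% and 68% of its 0 h mean in TKO libraries (-0.42, adjusted p = 0.0702), Klf2 at 79.8% and 68.4% (-0.43, adjusted p = 0.099) and Tbx3 at 81.2% and 69.6% (-0.37, adjusted p = 0.0943). For these 3 factors and for Zfp42, Klf4 and Klf5 the 4 h libraries lay below both 0 h libraries, as they did for 25.9% of all tested genes. Pou5f1 was at 106% and 123% of its 0 h mean (0.19, adjusted p = 0.175). Klf4, Klf5, Nanog and Zfp42 had mean levels of 79.7%, 82.7%, 88.3% and 89.2%, and Esrrb and Tfcp2l1 of 102% each. Replicate 2 lay below replicate 1 for all factors but Pou5f1 and Esrrb. The TKO changes depended on which 4 h library was kept. Without replicate 1 of 4 h they were -0.55 for Sox2, -0.54 for Klf2 and -0.46 for Tbx3 and Klf5. Nanog was then at -0.30, Zfp42 at -0.27 and Pou5f1 at 0.30, and none of these changes was over 1.5-fold. The median change of the 10 factors was -0.36 without replicate 1 of 4 h and -0.08 without replicate 2, against -0.23 with all libraries. With limma voom on the recovered reads and all libraries, Sox2 (0.00138), Klf2 (0.00585) and Tbx3 (0.0103) passed on adjusted p. A call in WT and none in TKO cells therefore does not show a different change, which needs its own test.

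**Figure D3:**
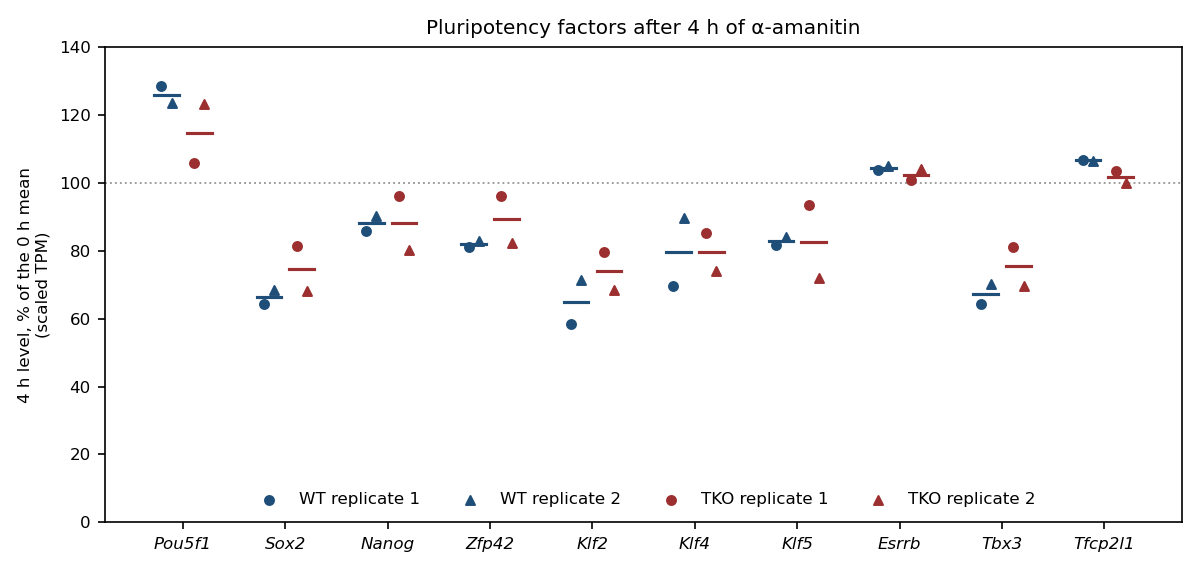
Level of each factor after 4 h of α-amanitin as a percentage of the 0 h group mean (y axis, scaled TPM, linear from 0) in each WT (blue) and TKO (red) library; circles are replicate 1, triangles replicate 2 and short lines the means. Sox2, Klf2 and Tbx3 have the lowest means in both genotypes, with libraries between 58.6% and 81.4%, and Pou5f1 lies above 100% in all 4 libraries.

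That test, the interaction of genotype and α-amanitin, called none of the 10 factors in limma, and 0% of all tested genes in either direction. An unadjusted p under 0.05 was found for 940 of the 12467 genes and the smallest adjusted p was 0.53. Positive values mean a smaller fall or a larger rise in TKO than in WT cells, and negative values the reverse. The estimates were 0.19 for Klf2 (95% interval -0.12 to 0.51), 0.16 for Sox2 (-0.09 to 0.41), 0.16 for Tbx3 (-0.10 to 0.42) and 0.12 for Zfp42 (-0.10 to 0.34). They were -0.14 for Pou5f1 (-0.39 to 0.10) and -0.07 for Tfcp2l1 (-0.21 to 0.07). The other four were within 0.03 of 0, with the narrowest interval for Esrrb (-0.16 to 0.10) and the widest for Klf4 (-0.35 to 0.39). The intervals, from 2 libraries per group, include differences of either sign.

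For each gene the longest annotated 3′ untranslated region in GENCODE M1 was read, because AUUUA pentamers are known from short-lived transcripts. Over 11160 tested genes with such a region of at least 100 bases, the median was 1.24 AUUUA per 1000 bases and 30.5% of genes had none. Sox2 held 4 in 1086 bases and Nanog 3 in 1078 bases. Tfcp2l1 held 7 in its 7733 bases, Tbx3 held 2 in 1746 bases, and Klf2, Klf4 and Esrrb held 1 each, in 737, 984 and 2563 bases. Pou5f1 and Zfp42 held none, in 225 and 528 bases. The annotated region of Klf5 is 76 bases long and was not read further. Per 1000 bases this is 3.68 for Sox2, 2.78 for Nanog, 1.36 for Klf2 and 1.15 for Tbx3. The relation to the changes after α-amanitin was not tested.

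The polyA libraries give the fifth view of WT ESCs. They were compared with the WT libraries of 0 h in a separate limma fit of 5 libraries and 12478 genes. RNA selection and library preparation differed together and cannot be told apart. Whether both sets came from the same cultures is not given in the sources used here. Klf5, Tbx3, Klf4 and Pou5f1 were called higher in polyA RNA, 4 of 10 factors against 18.7% of all tested genes. Zfp42 and Tfcp2l1 were called lower, 2 of 10 against 16.4% of all genes. By adjusted p alone, 7 factors were higher, against 40.1% of all genes, and 3 lower, against 40.9%.

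Klf5 was at 260, 260 and 244 TPM in the polyA libraries and at 82 and 80.8 in the ribodepleted libraries as deposited. The difference was 1.53 ± 0.04 on the log2(scaled TPM + 1) scale (limma, adjusted p = 5.63e-09). Tbx3 was at 44.5, 42.4 and 40.8 TPM against 14.6 and 13.8, a difference of 1.42 ± 0.05 (limma, adjusted p = 2.76e-08). Both were far apart between the groups. Zfp42 was at 169, 165 and 175 TPM against 513 and 478, so WT polyA libraries were nearer to the ribodepleted TKO libraries of 0 h (126 and 123) than to the ribodepleted WT libraries. Its difference was -1.65 ± 0.04 (limma, adjusted p = 8.76e-09). Klf4 (0.61), Pou5f1 (0.60) and Tfcp2l1 (-0.59) were just past 1.5-fold. Tfcp2l1 lost its call on deposited TPM, after quantile normalisation, with a pseudocount of 5 TPM, and without WT replicate 1 of 0 h or polyA replicate 3. Pou5f1 lost its call after quantile normalisation (0.37) and without polyA replicate 3 (0.57), and Klf4 with a pseudocount of 5 TPM (0.57). Without WT replicate 1 of 0 h, Pou5f1 (0.55) and Klf4 (0.58) were both under 1.5-fold and 2 factors were called higher. Sox2 (0.43), Esrrb (0.32), Klf2 (0.21) and Nanog (-0.41) passed on adjusted p alone.

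**Figure D4:**
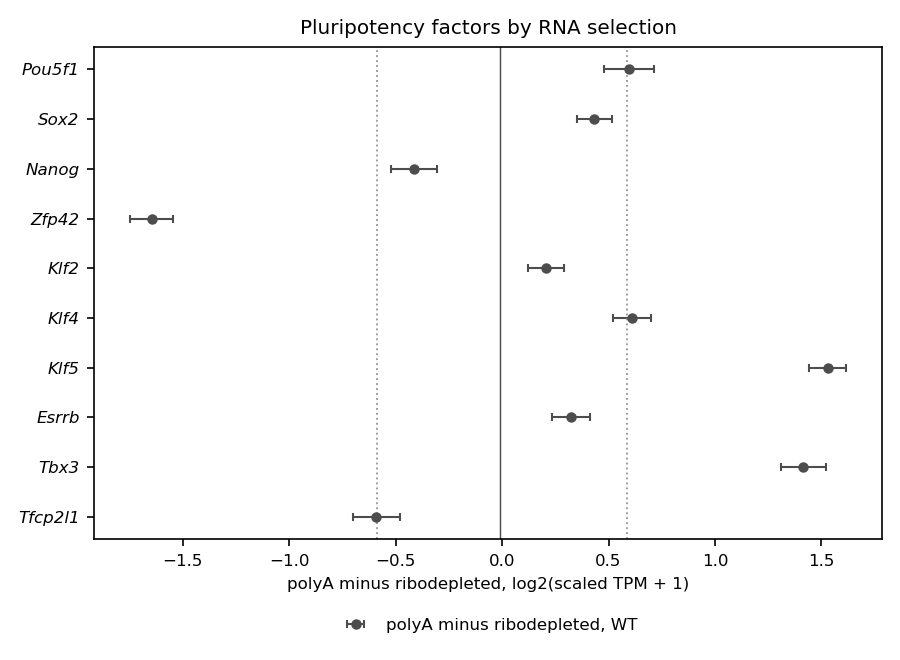
Difference of each factor between the 3 polyA and the 2 ribodepleted WT libraries of 0 h on the log2(scaled TPM + 1) scale (x axis), with 95% intervals from limma; the solid vertical line is the median of all tested genes and dotted lines mark 1.5-fold. Klf5 at 1.53 and Tbx3 at 1.42 lie highest and Zfp42 at -1.65 lowest.

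Other genes of the network were read as lists. Of 22 cofactors and regulators, all tested, 3 were called lower in TKO cells at 0 h and none higher, with a median of -0.28. Of all tested genes, 5.45% were called lower and 10.4% higher. These were Gbx2, a homeobox factor (29 and 32.7 scaled TPM in WT, 11.1 and 10.7 in TKO libraries, difference -1.42 ± 0.12), Tcl1, a coactivator of Akt (86.4 and 83.1 against 42 and 42.4, -0.99 ± 0.05), and Nr0b1, an orphan nuclear receptor that binds Oct4 (201 and 199 against 109 in both, -0.87 ± 0.04). Each had a lower level in both TKO libraries. Of 12 known targets of Oct4 and Sox2, none was called at 0 h in either direction, against 15.9% of all tested genes. By adjusted p alone 6 were lower and 4 higher, against 28.3% and 27.8% of all tested genes, with a median of -0.19. The targets Fgf4, Utf1, Tdgf1, Gdf3, Lin28a, Dppa4 and Dppa5a are also among the ESC markers read above, so the 2 lists are not separate observations. At 4 h, 2 of the 12 targets were called lower, Spp1 (-0.63) and Lin28a (-0.61), and 1 higher, Lefty1 (0.68). The shares of all tested genes at 4 h were 5.83% lower and 11% higher. The same 3 cofactors were called lower at 4 h and 1, Tcf7l1 (0.72), a repressor in the Wnt pathway, higher. These 4 further genes are named after their values were seen.

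Among 14 other Krüppel-like factors, 12 were tested and 4 called at 0 h, where 15.9% of all tested genes were called in either direction. Klf15 (-0.97 ± 0.11) and Klf12 (-0.70 ± 0.07) were lower in TKO cells. Klf6 and Klf7 were higher: Klf6 was at 40.9 and 42.1 scaled TPM in WT and at 85.5 and 93.6 in TKO libraries, a difference of 1.09 ± 0.08 (limma, adjusted p = 8.01e-06), and Klf7 differed by 0.80 ± 0.09. At 4 h, 1 of the 12 was called lower, Klf15 (-0.63), and 1 higher, Klf6 (1.24), against 5.83% and 11% of all tested genes. The calls in the Klf family therefore went in both directions, with Klf4 and Klf5 among those that were lower. Of 13 paralogs of the other factors, 9 were tested. Sox3, a close relative of Sox2, was the one called, against 15.9% of all tested genes called in either direction. The same gene is the primed epiblast marker named above. It passed the filter on low values only through its TKO libraries, so a fall could not have been called. It stood at 0.436 and 0.575 scaled TPM in WT and 1.71 and 1.85 in TKO libraries, a low level in both (0.89 ± 0.11), and was again the one paralog called at 4 h (0.92).

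**Figure D5:**
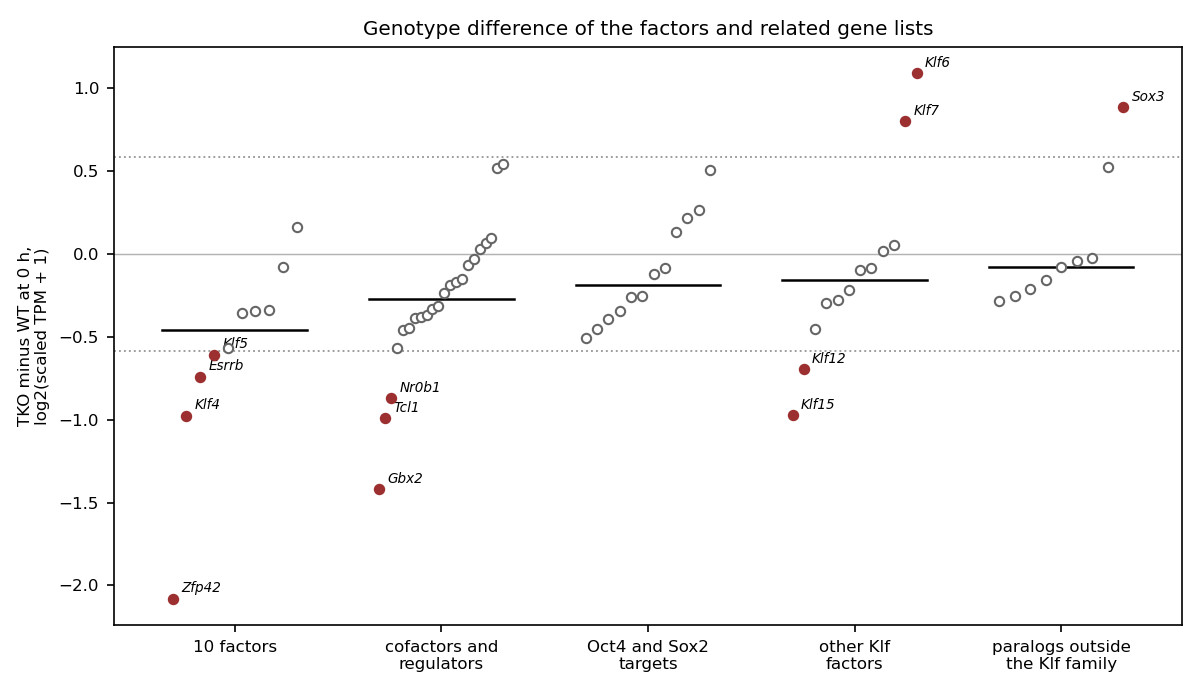
TKO minus WT difference at 0 h on the log2(scaled TPM + 1) scale (y axis) for the 10 factors and the tested genes of 4 related lists, ordered by value within each list; filled points were called, horizontal bars are list medians and dotted lines mark 1.5-fold. Called genes are lower in the first 2 groups, absent among the Oct4 and Sox2 targets, and in both directions among the other Klf factors.

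After α-amanitin, none of the 22 cofactors was called in either genotype, against 2.1% of all tested genes in WT and 0.16% in TKO cells. Of the 12 targets of Oct4 and Sox2, 2 were called lower in WT cells and 1 in TKO cells. The shares of all tested genes called lower were 2.01% and 0.16%. These genes are named here after their values were seen. Lefty1, an inhibitor of Nodal signalling, changed by -0.94 in WT cells (limma, adjusted p = 0.00232) and by -0.53 in TKO cells (adjusted p = 0.0732). Fgf4, a growth factor controlled by an Oct4 and Sox2 enhancer, changed by -0.77 in WT cells (limma, adjusted p = 0.00281) and by -0.59 in TKO cells (adjusted p = 0.0499). Klf6 was the one other Klf factor called, at -0.74 in WT and -0.59 in TKO cells. No paralog was called, and the interaction called no gene of these lists.

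The genes most like Zfp42, Klf4 and Esrrb, the 3 factors that varied most, were sought among 8106 genes by the distance between centred log2 profiles over the 8 ribodepleted libraries. They were Cnpy1 (distance 0.256), Hist1h4i (0.263) and Tet1 (0.326) for Zfp42. Tet1 is one of the genes targeted in the TKO line. For Klf4 they were Zfp931 (0.246), Chrna9 (0.269) and Pnma2 (0.327), and for Esrrb they were Mina (0.107), Atp11b (0.109) and Eras (0.119), an ESC-expressed Ras protein. The profiles share the same 8 libraries and the ranking is a description.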

How the data were processed

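Ribodepleted and polyA RNA of mouse ESCs was sequenced in 11 libraries, which were grouped by the genotype and time in their titles. Per the study's methods, reads were filtered with AfterQC, Bowtie2 (ribosomal and transfer RNA) and Trimmomatic, aligned to mm9 with STAR and RefSeq genes, and counted with HTSeq. The authors deposited the result as TPM, 1 value per gene, and analysed their counts with DESeq2. Software versions are not given in the sources used here. As TPM are not counts, each library was scaled by a median-of-ratios size factor (0.89 to 1.09 in the ribodepleted fit). limma 3.58.1 in R 4.3.3 was then run on log2(scaled TPM + 1) (eBayes with a trend, 1 coefficient per group, two-sided, no replicate block) for genes with a mean above 1 scaled TPM. The pseudocount of 1 TPM understates changes of low genes. Calls needed a Benjamini-Hochberg adjusted p under 0.05 over all tested genes and a change over 1.5-fold. The fit was tested on simulated data with 200 changed genes. Reads behind the TPM were recovered as whole numbers for 100% of the 19869 genes above 0 (relative tolerance 1e-12) and used for depth, for a comparison of replicates (chi-square over degrees of freedom at least 1.56 in every pair, so none was a repeated library) and for limma voom as an alternative. Other alternatives were 2 scalings, 2 pseudocounts, 2 filters, no variance trend, a replicate block, no fold limit, each library left out, and fits on 2 groups. Tfcp2l1 is listed in GENCODE M1 under its older symbol. Named were the 10 factors, up to 3 called genes per direction from each related list (by size of the genotype difference at 0 h), and 3 genes most like each of the 3 factors that varied most. The factors and lists were chosen with earlier results of these data known. Sequences come from RefSeq (GRCm38.p6) and GENCODE M1, and motif searches were checked on made-up strings.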

Additional observations from a re-analysis of the deposited data

How the results depend on the processing

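Of 1030 alternative values of single factors, 947 kept their direction and their side of adjusted p 0.05. The others were 16 that no longer passed, 37 that newly passed and 30 that changed sign, none of these last from a value that had passed the fold limit. Without the fold limit, 8 factors instead of 4 were lower in TKO cells at 0 h and 7 instead of 4 at 4 h; in WT cells after α-amanitin 4 were lower and 1 higher, and 7 were higher in polyA RNA. With a pseudocount of 5 TPM, 1 factor was lower after α-amanitin in WT cells, and leaving out 1 library gave 0 to 2 (0 without WT replicate 1 of 4 h). In polyA RNA 1 factor was lower instead of 2 on deposited TPM, after quantile normalisation and with a pseudocount of 5 TPM. Leaving out 1 library gave 1 to 2 lower and 2 to 4 higher there.

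Changes of sign on deposited TPM were 0.0191 for Tfcp2l1 at 0 h and 0.0123 at 4 h between genotypes, -0.0985 for Esrrb and -0.066 for Tfcp2l1 after α-amanitin in WT, -0.0627 and -0.0728 in TKO cells, and interactions of 0.0575 for Nanog, 0.05 for Klf5 and 0.0358 for Esrrb. Quantile normalisation gave 0.0087 for Tfcp2l1 at 0 h and 0.0117 for Sox2 at 4 h between genotypes, -0.0971 for Esrrb and -0.0379 for Tfcp2l1 in WT, -0.0249 and -0.0487 in TKO cells, and interactions of 0.0352 for Klf5 and 0.0722 for Esrrb. Limma voom gave an interaction of 0.0014 for Nanog. The cause was not tested. Left-out libraries moved the interactions of Nanog between -0.12 and 0.13, Klf4 between -0.17 and 0.19, Klf5 between -0.19 and 0.17 and Esrrb between -0.0479 and 0.0013. The median interaction of all 10 factors was 0.0088 with all libraries. It was lowest without WT replicate 1 of 4 h (-0.0464) and highest without TKO replicate 2 of 4 h (0.15).

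Replicate numbers are shared between groups, but same-numbered libraries did not deviate together (correlations of -0.04 to 0.12), so the numbers were not taken as pairs. A replicate block left 4 factors lower at 0 h and 4 h and changed no adjusted p call of a factor in the ribodepleted fit. In polyA RNA the replicate block left 1 factor lower and 3 higher, as Tfcp2l1 (-0.55) and Pou5f1 (0.57) came under 1.5-fold. With 2 libraries per group, the intervals of the interactions stay wide.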
